A study of Mus musculus with 16 samples.

Results

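The genes described here encode complement and coagulation factors, the plasma proteins of 2 proteolytic cascades that are made largely by hepatocytes. They were taken by gene symbol from a list of 34 symbols, which was set with earlier results of these data known. Of these, 33 were measured among 36824 features of the array. Complement had 16 measured genes and coagulation 16, and Vtn, which acts in both cascades, was kept apart. C8g matched no probe of the array. Cfb was measured under its older symbol H2-Bf, C1r and C1s correspond to C1ra and C1s1 in RefSeq, and the probe named C4 may measure C4a, C4b or both.

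The livers came from 8 male mice heterozygous for a knockout allele of Lpl (Lpl+/-) and 8 male wild type littermates, all on a chow diet. Lpl encodes lipoprotein lipase, which hydrolyses triglycerides of circulating lipoproteins. RNA of each liver was hybridised on 2-colour arrays against RNA pooled from the livers of 9 wild type mice. The labels give no age, strain or kind of knockout allele, and a heterozygote keeps 1 intact copy of the gene. Each value is a log ratio of mouse and pool, so 0 means the level of the pool. No source used here states the base of the logarithm. Because the values end at exactly 2 and -2, folds are printed as if it were 10, and they would be smaller in base 2. A positive ratio likely means more in the mouse than in the pool, judged from how the titles are worded, from the dyes and from Lpl, which was low in Lpl+/- livers (-0.573 to -0.208, against -0.0622 to 0.0496 in wild type livers). Ratios to a liver pool hold no absolute level, so the tissue label could not be checked by the level of hepatocyte genes.

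Array medians lay between -0.0045 and 0.0072. Of 120 pairs of arrays, 1 had a correlation under -0.3 over all probes, wild type 5 with wild type 8 (r = -0.352). The highest r of wild type 5 was 0.364, with wild type 4, and that of wild type 8 was 0.381, with wild type 7. The direction of these 2 arrays was not tested, so results are also given with the sign of either one turned. Turning reverses all values of that array, so a gene and the acute phase score described below change sign together in that mouse. A correlation with the score that holds after turning is therefore no independent check of it. In whole liver, fewer cells of a type and less RNA per cell cannot be told apart.

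Complement is started by antibody-bound C1 in the classical pathway, by mannose-binding lectins in the lectin pathway, or by spontaneous turnover of C3 in the alternative pathway, and all routes lead to cleavage of C3 and assembly of the membrane attack complex. Coagulation is a chain of serine proteases that ends with thrombin, which turns soluble fibrinogen into fibrin. In the acute phase response, cytokines such as interleukin-6 and interleukin-1 change hepatic transcription of many plasma proteins, among them serum amyloid A, fibrinogen and several complement factors. For this reason each gene was set against genotype and against an acute phase score, the mean log ratio per mouse of 15 acute phase genes that include Saa1, Saa2, Saa3, Orm1, Lcn2 and Hp and none of the complement and coagulation genes.

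The score differed widely between mice and little between genotypes. It ranged from -0.544 to 0.528 (median -0.488) in Lpl+/- livers and from -0.619 to 0.0985 (median -0.415) in wild type livers. The means were -0.293 ± 0.367 and -0.330 ± 0.268 in Lpl+/- and wild type livers (SD, n = 8 each, exact two-sided permutation p = 0.836). Lpl+/- 4 was the highest mouse, followed by wild type 8 at 0.0985 and wild type 7 at 0.0131, and 9 of the 16 mice lay between -0.619 and -0.473. Lpl+/- 4 and wild type 8 lay farthest from the median of -0.485. The widest gap between neighbouring mice was 0.430, a share of 0.374 of the whole range, so correlations were computed over all 16 mice and again without these 2 mice.

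**Figure D1:**
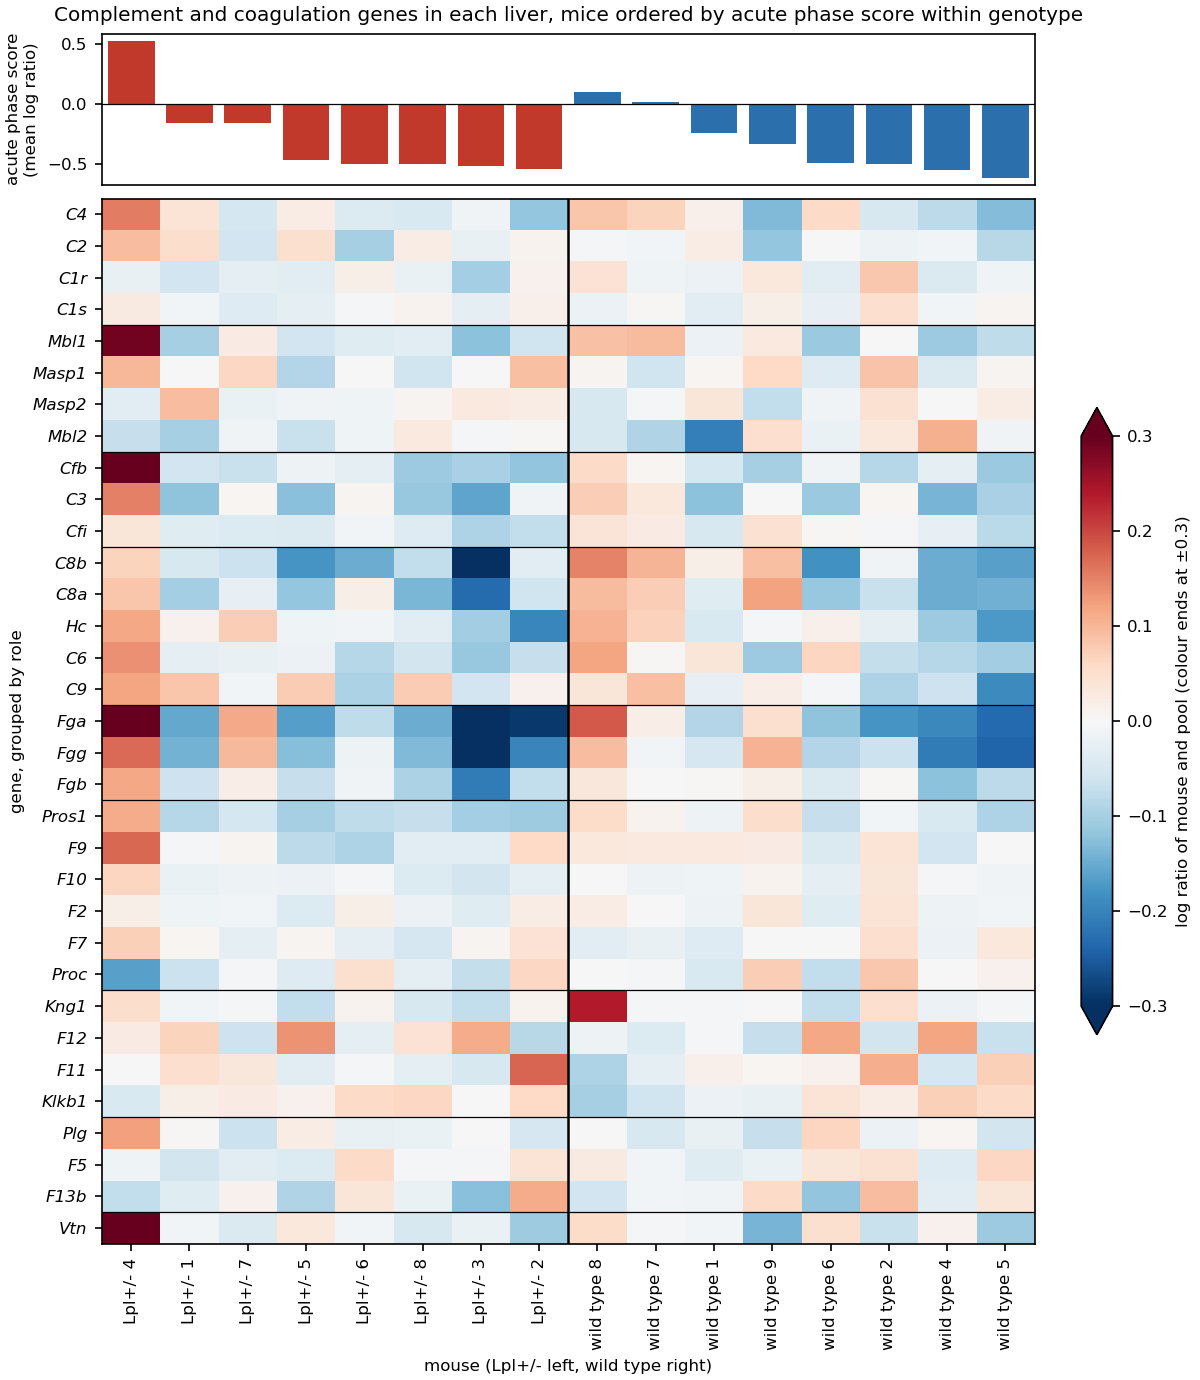
Log ratio of mouse and pool for the 33 genes (rows, grouped by role) in the 16 livers (columns, Lpl+/- left and wild type right, ordered by the acute phase score shown as bars above). Mbl1, Cfb, Fga and Vtn are at their highest in Lpl+/- 4, the mouse with the score of 0.528, and Klkb1 is at its lowest in wild type 8.

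No complement or coagulation gene passed the test of Lpl+/- against wild type livers. With limma and Benjamini-Hochberg adjustment over all features, 0 of 33 had an adjusted p under 0.05, against 0.0163% of all features (6 of 36824), and 0 of 33 had an unadjusted p under 0.05, against 5.60%. In Lpl+/- livers 14 genes had a higher and 19 a lower mean, with a median difference of -0.00619, against 5.31e-04 over all features. That split rested on single mice. Without Lpl+/- 4, 7 genes had a higher and 26 a lower mean in Lpl+/- livers, without Lpl+/- 3 they were 17 and 16, and without both Lpl+/- 3 and wild type 9 they were 21 and 12. Over 28 alternatives, 22 of the 33 differences changed sign at least once. The differences lay between -0.0874 (C8b, fold 0.818) and 0.0537 (C9, fold 1.13). That of C8b was -0.0499 without Lpl+/- 3 and -0.0344 without Lpl+/- 3 and wild type 9, and that of C9 was 0.00604 with wild type 5 turned. The 95% intervals of single genes reached folds as low as 0.608 (C8b) and as high as 1.62 (Cfb), but their widths differed, and that of F2 ran from 0.913 to 1.04. A difference within a gene's own interval could have gone undetected. The groups overlapped in all 33 genes, while 0.0380% of all features (14 of 36824) had groups without overlap.

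Among complement genes, C1r had the smallest p. It encodes a protease of the C1 complex, and its log ratio ran from -0.102 to 0.0174 (median -0.0259) in Lpl+/- livers, against -0.0426 to 0.0816 (median -0.0121) in wild type livers. The difference was -0.0342 ± 0.0199 (SE, limma adjusted p = 0.836, exact permutation p = 0.114). Lpl+/- 3 was the lowest mouse and wild type 2 the highest, and the groups overlapped. Cfi, which encodes the protease that inactivates C3b and C4b, ran from -0.0933 to 0.0371 (median -0.0392) in Lpl+/- livers and from -0.0811 to 0.0454 (median -0.00120) in wild type livers, a difference of -0.0316 ± 0.0205 (SE, limma adjusted p = 0.836). C8b, a chain of the membrane attack complex, ran from -0.368 to 0.0677 (median -0.0694) in Lpl+/- livers, against -0.182 to 0.148 (median 0.00410) in wild type livers. The lowest of these values belonged to Lpl+/- 3, and the limma adjusted p was 0.836. C9, which forms the pore of the same complex, had the opposite sign, with -0.0943 to 0.117 (median 0.0440) in Lpl+/- livers and -0.191 to 0.0911 (median -0.0147) in wild type livers (limma adjusted p = 0.836).

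Among coagulation genes, Pros1 had the smallest p. It encodes protein S, a cofactor of the anticoagulant protein C, and ran from -0.107 to 0.112 (median -0.0808) in Lpl+/- livers, against -0.0929 to 0.0552 (median -0.0108) in wild type livers, a difference of -0.0463 ± 0.0302 (SE, limma adjusted p = 0.836, exact permutation p = 0.167). The Lpl+/- values were low except in Lpl+/- 4, which was the highest mouse of either genotype. Proc, which encodes protein C itself, differed by -0.0383 ± 0.0299 and Kng1, which encodes kininogen, by -0.0400 ± 0.0345 (SE, limma adjusted p = 0.838 and 0.847). Klkb1, which encodes plasma prekallikrein, had the sign of a higher level in Lpl+/- livers, with a difference of 0.0246 ± 0.0239 (SE, limma adjusted p = 0.857). In Kng1, wild type 8 stood at 0.473 on one of the 2 probes and at 0.00350 on the other. With wild type 8 turned, the difference of Kng1 was 0.0196 and that of Klkb1 -6.25e-05, so neither kept its sign, and without wild type 8 they were -0.00931 and 0.0106.

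F7, F10, F11 and Klkb1 lie on chromosome 8, as does Lpl. Counted in measured genes from Lpl they stand at places -302, -301, -94 and -93, on the same side of it. F7 encodes the protease that starts coagulation with tissue factor, and it differed by 0.00834 ± 0.0179 (SE, limma adjusted p = 0.939). F10, which encodes the protease that activates prothrombin, differed by -0.0120 ± 0.0150, and F11, which encodes a protease that activates factor IX, by 0.0135 ± 0.0323 (SE, limma adjusted p = 0.885 and 0.943). The sign of F11 turned without Lpl+/- 2 (-0.00874), without wild type 8 (-3.87e-04) and with wild type 8 turned (-0.00951), and that of F7 turned without Lpl+/- 4 (-0.00133). All 4 genes had overlapping groups.

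**Figure D2:**
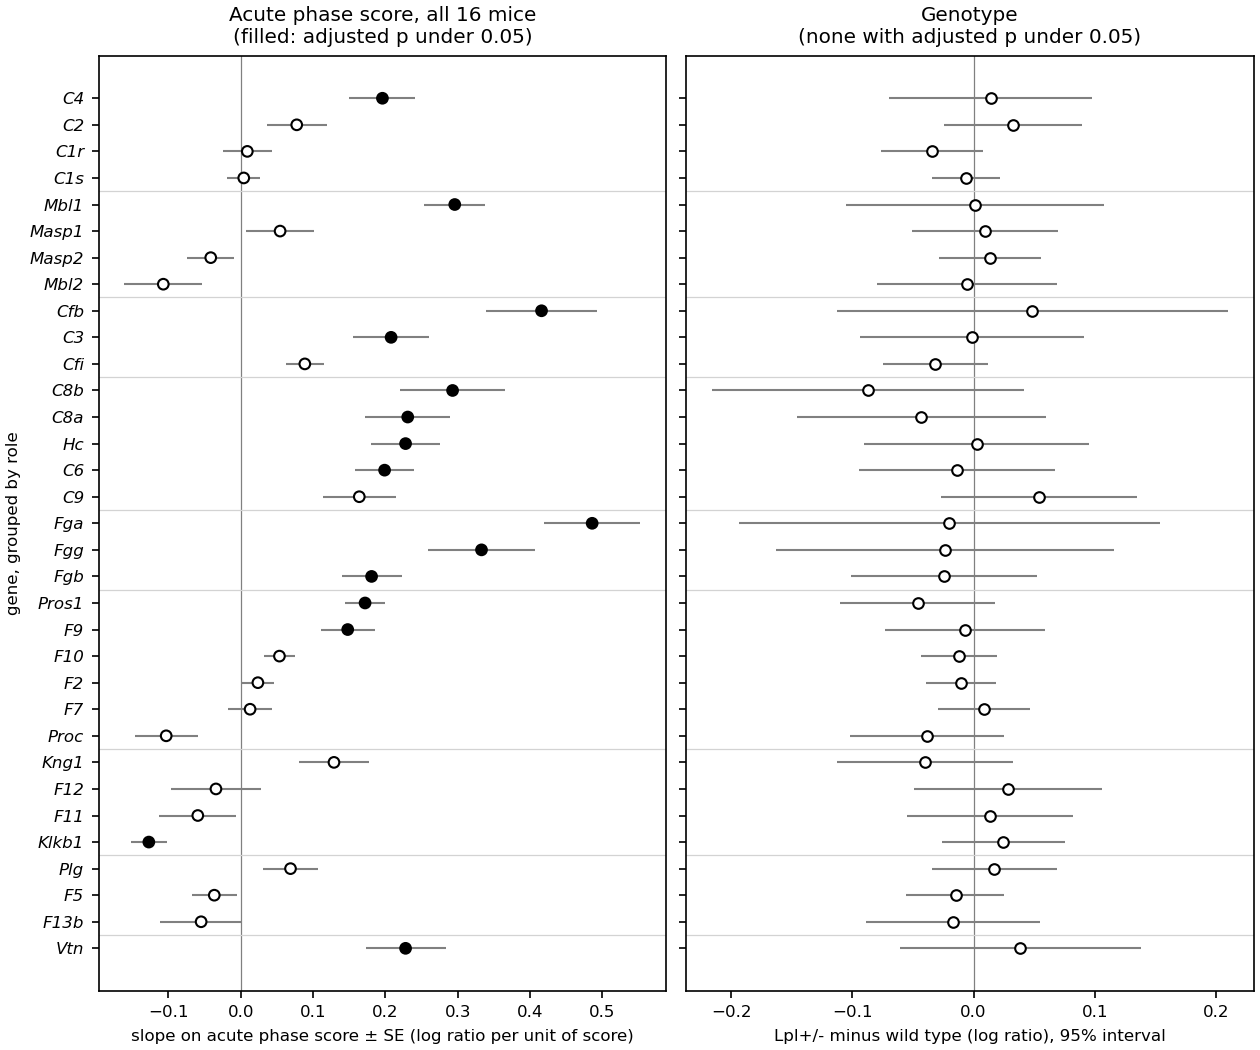
Left, slope of each gene's log ratio on the acute phase score with its SE, fitted over 16 mice with a genotype term (filled points have a limma adjusted p under 0.05). Right, difference Lpl+/- minus wild type with its 95% interval; 15 genes are filled on the left and 0 of 33 on the right.

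Against the acute phase score, 15 of the 33 genes passed the test. A slope was fitted with limma for each feature with genotype as a second term, and it gives the change of a gene's log ratio per unit of score, a quantity that does not depend on the log base. At an adjusted p under 0.05, 14 genes had a positive and 1 a negative slope, or 45.5% of the 33, against 4.30% of all 36809 features outside the score (2.36% positive and 1.94% negative). Complement had 8 of 16 called, all positive, with a median slope of 0.180. Coagulation had 5 positive and 1 negative of 16, with a median slope of 0.0387, and Vtn was positive. The median over all features was -7.98e-04. All 15 called genes had the same sign of correlation with the score in Lpl+/- mice and in wild type mice taken alone, and so did 27 of the 33 genes. The 15 were picked by a slope over these same mice, so their shared sign is no independent evidence. The share of all features with a shared sign was not computed. Fitted alone, Lpl+/- mice gave 3 called genes of the 33, against 0.747% of all features, and wild type mice 2, against 0.975%.

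These calls rested largely on 2 mice. Without Lpl+/- 4, 3 of the 33 genes were called, Fga, Hc and Klkb1, against 2.25% of all features. Without wild type 8, 9 were called, against 2.52%. Without both, 0 of 33 were called, against 0.147% of all features. All 15 genes kept their sign, and 7 of them had an unadjusted permutation p under 0.05 for the correlation over the other 14 mice. These 15 genes were picked in a fit that held the same 14 mice, and the share of all features at that p was not computed. Without wild type 4 or wild type 5, 11 genes were called, 5 of them complement genes, against 3.43% and 3.39% of all features. Without wild type 7, 11 were called, 4 of them complement genes, against 1103 of all 36809 features. With the sign of wild type 5 turned, 16 genes were called, against 3.05% of all features, and with that of wild type 8 turned, 4 were called (Fga, Cfb, Mbl1 and Pros1), against 1.39%. Quantile normalization left 6 called, against 1.75%.

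**Figure D3:**
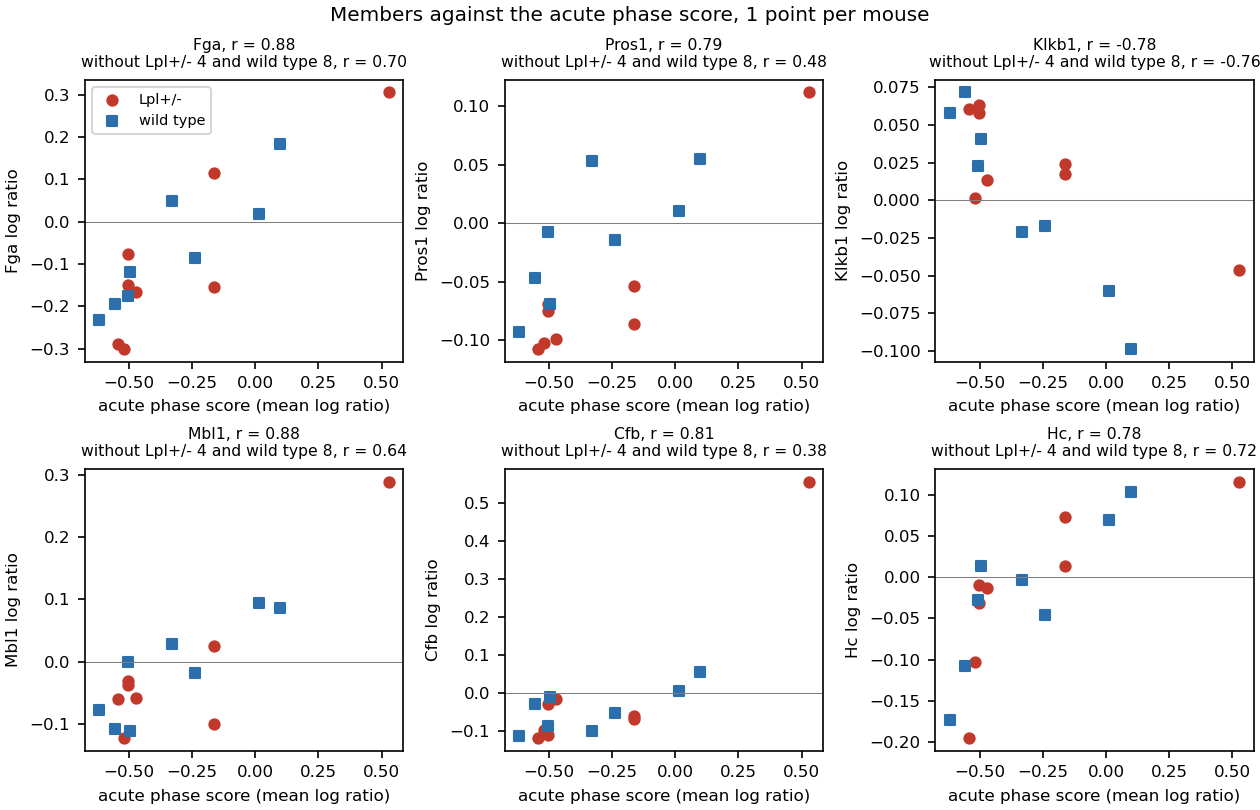
Log ratio of 6 genes (vertical axes) against the acute phase score (horizontal axes), 1 point per mouse, Lpl+/- as circles and wild type as squares. Fga, Pros1, Mbl1, Cfb and Hc are higher in mice of higher score and Klkb1 lower, and the point at a score of 0.528 is Lpl+/- 4.

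In the classical pathway, 1 of 4 genes was called. C4, whose product joins C2 to form the C3 convertase of this pathway, ran from -0.117 to 0.153 (median -0.0257) in Lpl+/- livers and from -0.131 to 0.0824 (median -0.0165) in wild type livers. Its highest value in each genotype belonged to Lpl+/- 4 and wild type 8, and its slope was 0.196 ± 0.0456 (SE, limma adjusted p = 0.0234). The correlation was r = 0.751 (permutation p = 5.20e-04) and rho = 0.715 (permutation p = 0.00266), and r = 0.506 without those 2 mice (permutation p = 0.0646). The call also ended without Lpl+/- 4, wild type 7 or wild type 8 alone. The C1 proteases C1r and C1s had slopes of 0.00917 and 0.00425 (limma adjusted p = 0.921 and 0.948). They varied little, with SDs over the 16 mice of 0.0429 and 0.0245, against a median of 0.0420 over all features, and the 2 probes of C1s had r = -0.459 with each other. C2 had a slope of 0.0775 (limma adjusted p = 0.349).

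The lectin pathway also had 1 of 4 genes called, Mbl1, which encodes mannose-binding lectin A. Mbl1 ran from -0.122 to 0.289 (median -0.0471) in Lpl+/- livers, against -0.112 to 0.0943 (median -0.00880) in wild type livers. The value of 0.289 was that of Lpl+/- 4, well above the next Lpl+/- mouse at 0.0251, while wild type 7 and wild type 8 were the highest wild type mice. The slope was 0.296 ± 0.0421 (SE, limma adjusted p = 8.95e-04), with r = 0.880 (permutation p = 1.20e-04) and rho = 0.685 (permutation p = 0.00430). Without the 2 farthest mice r was 0.640 (permutation p = 0.0138), and with wild type 5 or wild type 8 turned it was 0.808 or 0.810. The limma call ended without Lpl+/- 4. Mbl2, which encodes mannose-binding lectin C, had a slope of the other sign, -0.107 ± 0.0537 (SE, limma adjusted p = 0.314), and the 2 lectins had r = -0.244 with each other (permutation p = 0.342). The associated proteases Masp1 and Masp2 had slopes of 0.0545 and -0.0414 (limma adjusted p = 0.587 and 0.546), and Masp2 had an SD over the mice of only 0.0397.

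Of the alternative pathway and C3, 2 of 3 genes were called. Cfb encodes factor B, the protease of the alternative C3 convertase, and it had the widest spread of all 33 genes, 4.72-fold between the lowest and the highest mouse. Its log ratio ran from -0.117 to 0.557 (median -0.0629) in Lpl+/- livers and from -0.111 to 0.0563 (median -0.0399) in wild type livers. Lpl+/- 4 alone stood at 0.557, and the next Lpl+/- mouse was at -0.0146. The slope was 0.416 ± 0.0765 (SE, limma adjusted p = 0.00572), r was 0.812 (permutation p = 7.70e-04) and rho 0.662 (permutation p = 0.00673). Without the 2 farthest mice r was 0.384 (permutation p = 0.177), so the relation rests on them, and the limma call ended without Lpl+/- 4. C3, on which all pathways converge, had a slope of 0.208 ± 0.0528 (SE, limma adjusted p = 0.0369), and its call held in 6 of 16 fits that each left out 1 mouse. It ended without Lpl+/- 3, 4, 5, 7 or 8 and without wild type 4, 5, 6, 7 or 8. Cfi had a slope of 0.0887 ± 0.0266 (SE, limma adjusted p = 0.0746).

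Of the 5 terminal genes, 4 were called, and all 5 slopes lay between 0.164 and 0.293. Hc, which encodes complement C5 in the mouse, ran from -0.195 to 0.116 (median -0.0107) in Lpl+/- livers, against -0.173 to 0.104 (median -0.0155) in wild type livers. Its values followed the order of the mice closely in both genotypes, with rho = 0.888 (permutation p = 5.00e-05) and r = 0.784 (permutation p = 2.40e-04). The slope was 0.228 ± 0.0474 (SE, limma adjusted p = 0.0124). Among the called complement genes, Hc was the one that kept its call whichever single mouse was left out, and r was 0.721 without the 2 farthest mice (permutation p = 0.00401), 0.833 with wild type 5 turned and 0.675 with wild type 8 turned.

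C6, whose product binds C5b, had a slope of 0.199 ± 0.0410 (SE, limma adjusted p = 0.0118, r = 0.780, permutation p = 5.60e-04). It ran from -0.114 to 0.136 (median -0.0413) in Lpl+/- livers and from -0.108 to 0.118 (median -0.0340) in wild type livers, with Lpl+/- 4 and wild type 8 the highest of their groups. Its 2 probes had r = 0.783 with each other, the call ended without Lpl+/- 4, and r was 0.478 without both mice (permutation p = 0.0832). C8a and C8b encode chains of the same protein, and their genes lie on chromosome 4. C8b had a slope of 0.293 ± 0.0724 and C8a of 0.231 ± 0.0590 (SE, limma adjusted p = 0.0322 and 0.0382). The call of C8b ended without Lpl+/- 4 and without wild type 4, 5, 7 or 8, and that of C8a held in 5 of 16 such fits, those without Lpl+/- 1, 2 or 6 and without wild type 1 or 9. The 2 genes followed each other between mice, with r = 0.855 (permutation p adjusted over 12 gene pairs = 3.00e-05). It was 0.789 without the 2 mice farthest in C8a (Lpl+/- 3 and wild type 9), and 0.872 or 0.830 with wild type 5 or 8 turned. C9 had a slope of 0.164 ± 0.0504 that missed the threshold (SE, limma adjusted p = 0.0817).

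The 3 fibrinogen chains were all called and had the steepest slopes of the coagulation genes. Fibrinogen is assembled from an alpha, a beta and a gamma chain, whose genes Fga, Fgb and Fgg are neighbours on chromosome 3. Because these genes moved together, the 250 bases before their annotated starts are shown, together with those of Pros1 and Klkb1, the called coagulation genes of smallest p outside fibrinogen. The sequences are from RefSeq for build GRCm38.p6, written 5′ to 3′ on the strand of the gene. Capitals mark matches on either strand to 4 motifs, CTGGGAA and TTCCNGGAA (forms bound by STAT factors, which act downstream of interleukin-6), TTGCNNAA (C/EBP) and GTTAAT (part of the HNF1 site).
Fga (chr3:83025903-83026152, plus strand): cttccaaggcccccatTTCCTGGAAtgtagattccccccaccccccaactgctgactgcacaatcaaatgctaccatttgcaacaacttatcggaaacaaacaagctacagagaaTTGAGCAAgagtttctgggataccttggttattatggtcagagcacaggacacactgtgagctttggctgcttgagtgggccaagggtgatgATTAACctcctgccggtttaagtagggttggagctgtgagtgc
Fgb (chr3:83049864-83050113, minus strand): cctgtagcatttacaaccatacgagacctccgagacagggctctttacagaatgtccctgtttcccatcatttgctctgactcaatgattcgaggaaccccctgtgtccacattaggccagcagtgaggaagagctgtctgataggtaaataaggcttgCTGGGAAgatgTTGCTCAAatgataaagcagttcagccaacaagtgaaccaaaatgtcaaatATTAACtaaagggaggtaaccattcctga
Fgg (chr3:83007474-83007723, plus strand): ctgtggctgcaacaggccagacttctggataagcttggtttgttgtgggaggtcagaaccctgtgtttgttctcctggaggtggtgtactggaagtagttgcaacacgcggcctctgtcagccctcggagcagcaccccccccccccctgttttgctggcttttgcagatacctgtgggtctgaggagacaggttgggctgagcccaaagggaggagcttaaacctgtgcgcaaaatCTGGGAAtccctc
Pros1 (chr16:62854057-62854306, plus strand): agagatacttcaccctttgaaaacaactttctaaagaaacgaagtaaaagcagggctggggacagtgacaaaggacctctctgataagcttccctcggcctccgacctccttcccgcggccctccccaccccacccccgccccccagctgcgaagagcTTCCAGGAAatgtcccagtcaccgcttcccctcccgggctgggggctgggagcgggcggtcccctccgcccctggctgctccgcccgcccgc
Klkb1 (chr8:45294836-45295085, minus strand): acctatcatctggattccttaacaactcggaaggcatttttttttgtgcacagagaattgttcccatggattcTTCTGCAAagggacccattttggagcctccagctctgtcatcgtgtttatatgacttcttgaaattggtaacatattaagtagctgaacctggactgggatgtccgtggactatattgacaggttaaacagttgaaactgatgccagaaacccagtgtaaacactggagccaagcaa

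CTGGGAA was present before Fgb and Fgg, and before 9.10% of all 32851 promoters of the same length. TTCCNGGAA was present before Fga and Pros1, and before 0.913% of all promoters. Over the 25 genes whose promoter was in the RefSeq table, 5 held CTGGGAA (C1r, F9, Fgb, Fgg and Masp2) and 2 held TTCCNGGAA. TTGCNNAA was found in 8 of the 25 (C1s, C3, C9, F9, F11, Fga, Fgb and Klkb1) and in 9.56% of all promoters. GTTAAT was found in 8 of the 25 (C1r, C8a, C8b, F13b, Fga, Fgb, Hc and Vtn) and in 6.43% of all promoters. Of these genes, C1r, C1s, Masp2, C9, F11 and F13b were not called on the score, so the motifs were not confined to called genes. The promoter of Mbl1 held none of the 4 motifs. Matches of different motifs did not overlap in the 5 sequences shown (0 overlaps). A match is a stretch of letters only, and binding was not measured.

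Fga ran from -0.3001 to 0.305 (median -0.152) in Lpl+/- livers and from -0.232 to 0.184 (median -0.103) in wild type livers, a 4.03-fold spread between the lowest and the highest mouse. Lpl+/- 4 was highest and wild type 8 second, and the lowest values belonged to Lpl+/- 3 and Lpl+/- 2. The slope of 0.486 ± 0.0668 (SE) was the steepest of the 33 genes (limma adjusted p = 7.24e-04), with r = 0.876 (permutation p = 3.00e-05) and rho = 0.850 (permutation p = 7.00e-05). Fga kept its call whichever single mouse was left out. Its r was 0.705 without the 2 farthest mice (permutation p = 0.00496), 0.880 with wild type 5 turned and 0.804 with wild type 8 turned.

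Fgg had a slope of 0.333 ± 0.0743 and Fgb of 0.181 ± 0.0415 (SE, limma adjusted p = 0.0186 and 0.0216). Fgg ran from -0.304 to 0.169 (median -0.130) in Lpl+/- livers, against -0.240 to 0.103 (median -0.0574) in wild type livers. Fgb ran from -0.209 to 0.117 (median -0.0655) in Lpl+/- livers, against -0.123 to 0.0346 (median 8.00e-04) in wild type livers. In both genes Lpl+/- 4 was highest and Lpl+/- 3 lowest. The call of Fgb ended without Lpl+/- 4, and that of Fgg without Lpl+/- 4 or without wild type 8. Between mice the chains followed one another, with r = 0.942 for Fga and Fgg, 0.925 for Fgb and Fgg and 0.857 for Fga and Fgb (permutation p adjusted over 12 gene pairs = 3.00e-05 each). Without the 2 mice farthest in the first gene of a pair these were 0.941, 0.901 and 0.775, and turning either wild type array left them between 0.844 and 0.950.

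Of the 6 vitamin K-dependent proteins, Pros1 and F9 were called. Pros1 had a slope of 0.172 ± 0.0273 (SE, limma adjusted p = 0.00214), and its 2 probes had r = 0.976 with each other. Its r was 0.786 (permutation p = 7.70e-04) and 0.480 without the 2 farthest mice (permutation p = 0.0801), and the call ended without Lpl+/- 4. F9, which encodes factor IX, had a slope of 0.148 ± 0.0374 (SE, limma adjusted p = 0.0359), but its rho was 0.368 (permutation p = 0.162) and its call ended without Lpl+/- 3, 4 or 5 or without wild type 4. Proc, the gene of protein C, had a negative slope of -0.103 ± 0.0438 (SE, limma adjusted p = 0.223). It was lowest in Lpl+/- 4, at -0.163, where Pros1 was highest, and the 2 genes had r = -0.152 (permutation p = 0.574).

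F2, F7 and F10 were among the least variable genes. F2, which encodes prothrombin, ran from -0.0405 to 0.0226 (median -0.0100) in Lpl+/- livers and from -0.0367 to 0.0416 (median -0.00440) in wild type livers, a 1.21-fold spread. Its slope was 0.0238 ± 0.0226 (SE, limma adjusted p = 0.633). F7 had a 1.33-fold spread and a slope of 0.0130, and F10 a 1.32-fold spread and a slope of 0.0536 (limma adjusted p = 0.867 and 0.191). Both were highest in Lpl+/- 4, at 0.0720 and 0.0650. The 2 genes, which lie side by side on chromosome 8, had r = 0.529 (permutation p adjusted over 12 gene pairs = 0.0516). Without the 2 mice farthest in F7 (Lpl+/- 4 and wild type 2) r was -0.119, so their relation rests on those.

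In the contact system, Klkb1 was the only gene called and the only one of the 33 to be called with a negative slope. It ran from -0.0463 to 0.0629 (median 0.0207) in Lpl+/- livers and from -0.0986 to 0.0715 (median 0.00275) in wild type livers. Wild type 8 and wild type 7 were the lowest mice, followed by Lpl+/- 4. The slope was -0.127 ± 0.0247 (SE, limma adjusted p = 0.00801), with r = -0.782 (permutation p = 4.50e-04) and rho = -0.771 (permutation p = 8.40e-04). Without the 2 farthest mice r was -0.758 (permutation p = 0.00198), and it was -0.776 with wild type 5 turned and -0.577 with wild type 8 turned, where the limma call ended. In Lpl+/- mice alone r was -0.801 (exact permutation p = 0.0282), and in wild type mice alone it was -0.969 (exact permutation p = 2.73e-04). Klkb1 also ran against Fga (r = -0.695, rho = -0.565) and Mbl1 (r = -0.673, rho = -0.602), with permutation p adjusted over 12 gene pairs of 0.00766 and 0.00874 for r and 0.0492 and 0.0371 for rho. Without the 2 mice farthest in Fga or in Mbl1 these r were -0.480 and -0.636. Klkb1, Fga and Mbl1 were each called on the same score in these mice, Klkb1 with the other sign. Their correlations are therefore no independent evidence, and the adjustment over 12 pairs does not cover how the pairs were chosen.

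Its neighbours in the contact system did not share the call. Kng1, whose product is cleaved by kallikrein to release bradykinin, ran from -0.0729 to 0.0529 (median -0.00640) in Lpl+/- livers, against -0.0727 to 0.238 (median -0.00287) in wild type livers, and its slope was 0.129 ± 0.0489 (SE, limma adjusted p = 0.164). With wild type 8 turned, the r of Kng1 with the score was 0.0891 in place of 0.528. F11 ran from -0.0474 to 0.174 (median -0.00165) in Lpl+/- livers, against -0.0921 to 0.110 (median 0.00935) in wild type livers, with Lpl+/- 2 the highest mouse and wild type 8 the lowest. Its slope was -0.0593 ± 0.0531 (SE, limma adjusted p = 0.609). F11 and Klkb1 lie next to each other in gene order and had r = 0.433 (permutation p adjusted over 12 gene pairs = 0.126). F12, which encodes the factor that starts the contact pathway, had an SD of 0.0766, among the 3 widest of the coagulation genes, and ran from -0.0822 to 0.135 (median 0.0343) in Lpl+/- livers and from -0.0684 to 0.118 (median -0.0278) in wild type livers. Its highest mice, Lpl+/- 5, wild type 4 and wild type 6, all had scores of -0.473 or lower, and its slope was -0.0342 ± 0.0622 (SE, limma adjusted p = 0.826).

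Of the 3 other coagulation and fibrinolysis genes, 0 were called. F5, the cofactor of factor Xa, had a slope of -0.0365, but its 2 probes had r = 0.0509 with each other. F13b, the carrier subunit of factor XIII, had a slope of -0.0547, and Plg, which encodes plasminogen, one of 0.0689 (limma adjusted p = 0.588, 0.664 and 0.365 for F5, F13b and Plg). Plg was highest in Lpl+/- 4, at 0.124, and its r turned from 0.440 over all mice to -0.288 without the 2 farthest.

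Vtn encodes vitronectin, which blocks assembly of the membrane attack complex and stabilises the plasminogen activator inhibitor PAI-1. It ran from -0.107 to 0.298 (median -0.0134) in Lpl+/- livers and from -0.139 to 0.0541 (median -0.00515) in wild type livers, and Lpl+/- 4 stood apart from the other 15 mice. The difference between genotypes was 0.0384 ± 0.0469 (SE, limma adjusted p = 0.882), and -0.00244 without Lpl+/- 4. The slope was 0.228 ± 0.0553 (SE, limma adjusted p = 0.0302), with r = 0.727 (permutation p = 0.00679) and rho = 0.521 (permutation p = 0.0409). Without the 2 farthest mice r was 0.155 (permutation p = 0.596), so the relation rests on them, and the call ended without Lpl+/- 4, wild type 5 or wild type 8.

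Whether the slope itself differed between genotypes was tested with an interaction term. It was called in 0 of 36809 features (0%), with 8.10% at an unadjusted p under 0.05, and 4 of the 33 genes were at an unadjusted p under 0.05. These were Klkb1, Cfb, F7 and F10, named after their values were seen (limma adjusted p = 0.428, 0.439, 0.507 and 0.557). F7 had r = 0.573 with the score in Lpl+/- mice and -0.675 in wild type mice, and F10 had r = 0.879 in Lpl+/- mice and -0.101 in wild type mice. In both genes Lpl+/- 4 was the highest Lpl+/- mouse, and without it r over the other mice was -0.468 for F7 and 0.146 for F10.

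**Figure D4:**
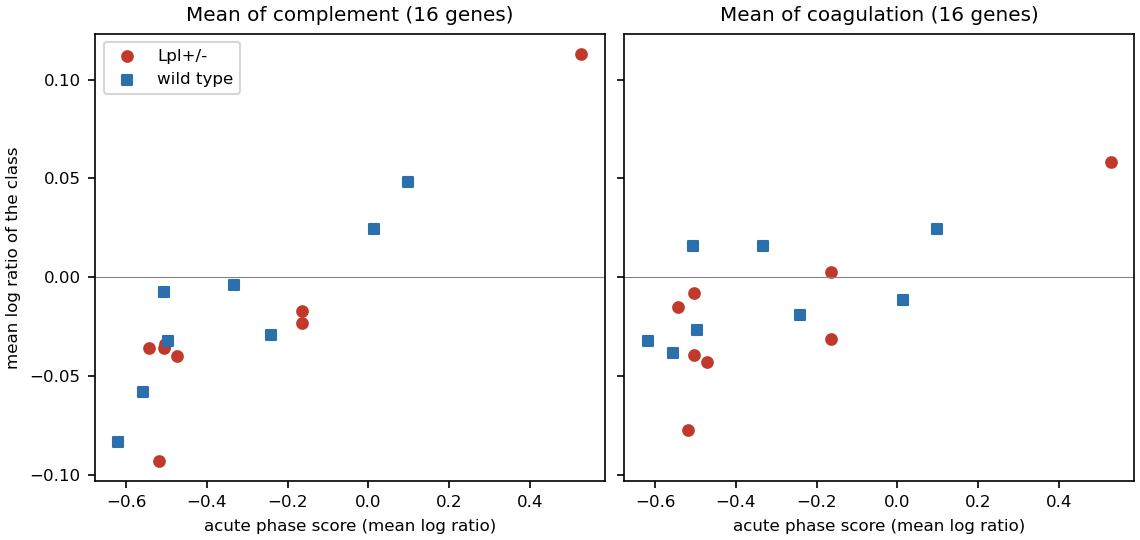
Mean log ratio of the 16 complement genes (left) and of the 16 coagulation genes (right) in each mouse against the acute phase score, Lpl+/- as circles and wild type as squares. The complement mean spans -0.0929 to 0.113 and the coagulation mean -0.0775 to 0.0585, with Lpl+/- 4 at the upper right of both panels.

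The 2 cascades were set side by side by the mean of their genes in each mouse, without a test. The complement mean per mouse ran from -0.0929 to 0.113 (median -0.0347) in Lpl+/- livers and from -0.0834 to 0.0484 (median -0.0184) in wild type livers. The coagulation mean ran from -0.0775 to 0.0585 (median -0.0232) in Lpl+/- livers and from -0.0382 to 0.0245 (median -0.0155) in wild type livers. The highest mouse for both was Lpl+/- 4, and the genotypes overlapped for both. Complement minus coagulation averaged -0.00157 ± 0.0259 in Lpl+/- livers and -0.00870 ± 0.0276 in wild type livers (SD, n = 8 each), a difference of 0.00713 that is smaller than the spread between mice (pooled SD 0.0268). The median SD of a complement gene over the 16 mice was 0.0801 and that of a coagulation gene 0.0648, against 0.0435 over all features with a gene symbol.

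With the score, the complement mean had r = 0.905 (0.707 without the 2 farthest mice), the coagulation mean r = 0.703 (0.319), and complement minus coagulation r = 0.842 (0.665). With wild type 8 turned these were 0.839, 0.638 and 0.763, and with wild type 5 turned 0.916, 0.724 and 0.883. The mean of the fibrinogen chains alone had r = 0.825 (0.645 without the 2 mice). These are descriptions of the means and were not tested. Within complement, 82 of 120 gene pairs had r above 0 (median 0.335), within coagulation 74 of 120 (median 0.192), and between the classes 169 of 256 (median 0.254). Without the 2 farthest mice the medians were 0.151, 0.267 and 0.126. The genes of a mouse share 1 array, so these pairs are not independent.

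Other genes of the pathways were counted in the same fits, where 4.30% of all features were called on the score (2.36% with a positive slope). Of 22 other complement genes measured, 3 were called with a positive and 0 with a negative slope on the score, with a median slope of 0.0375. C4bp, which encodes an inhibitor of the classical convertase, had a slope of 0.217 ± 0.0236 (SE, limma adjusted p = 8.35e-05, r = 0.936). Serping1, the gene of C1 inhibitor, had 0.214 ± 0.0266 (SE, limma adjusted p = 2.91e-04), and Clu, which encodes clusterin, 0.201 ± 0.0360 (SE, limma adjusted p = 0.00498). Without the 2 farthest mice their r were 0.823, 0.736 and 0.450. Of 34 other genes of coagulation and fibrinolysis, 4 were called, all with a positive slope, with a median slope of 0.0115. Fgl1, which encodes a fibrinogen-like protein of the liver, had a slope of 1.18 ± 0.102, and Serpina10, which encodes the inhibitor of factor Xa that depends on protein Z, one of 0.591 ± 0.0354 (SE, limma adjusted p = 9.73e-06 and 1.39e-07). Cpb2, whose product slows fibrinolysis, had 0.215 ± 0.0320 (SE, limma adjusted p = 0.00131). The fourth, A2m, was named after its values were seen and had 0.477 ± 0.0722 (SE, limma adjusted p = 0.00144). Without the 2 farthest mice the r of Fgl1, Serpina10, Cpb2 and A2m were 0.888, 0.927, 0.647 and 0.647, in place of 0.945, 0.976, 0.878 and 0.849. Between Lpl+/- and wild type livers, 0 of 22 and 0 of 34 were called, with the smallest p for Itgb2, C3ar1 and C1qb and for F8, Hpn and Ggcx (limma adjusted p = 0.836 each).

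Some markers of cell types were also called on the score, against 4.30% of all features. Of 9 neutrophil markers, 3 were called with a positive slope, S100a8, S100a9 and Cxcr2 (slopes of 0.504, 0.568 and 0.244, limma adjusted p = 3.15e-04, 0.00118 and 0.00685). Of the 9 slopes, 6 were positive and 3 negative, those of Ltf, Camp and Retnlg. Without the 2 mice farthest in the score, the r of S100a8, S100a9 and Cxcr2 were 0.678, 0.635 and 0.636, in place of 0.885, 0.849 and 0.791. The mean of the neutrophil list ran from -0.0963 to 0.107 in Lpl+/- livers and from -0.0774 to 0.0641 in wild type livers. Of 8 stellate cell markers, the collagen genes Col3a1, Col1a1 and Col1a2 were called with a positive slope and Reln with a negative one. Their slopes were 0.335, 0.407, 0.0831 and -0.135, and their r without the same 2 mice 0.655, 0.743, 0.734 and -0.592. The slopes of Lrat, Des, Dcn and Hand2 lay between -0.0167 and 0.00619 and were not called. Of the 8 slopes, 5 were positive and 3 negative, with a median of 0.00585. List means were -0.119 to 0.0255 in Lpl+/- and -0.0667 to 0.0361 in wild type livers. Of 8 hepatocyte markers, 6 had a negative and 2 a positive slope. Alb and Ttr were called with a negative slope, with list means of -0.189 to 0.0336 in Lpl+/- and -0.0545 to 0.0299 in wild type livers. Alb, the gene of albumin, stood at -0.701 in Lpl+/- 4 and -0.449 in wild type 8, and its r with the score was -0.790 over all mice and -0.136 without these 2.

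Of 7 lymphocyte markers, 6 had a negative slope. The other, Cd3e, was called (slope 0.107, limma adjusted p = 0.0205). Of 12 macrophage, 7 endothelial and 7 pancreas markers, 0 were called. Slopes were positive in 11 of the 12 macrophage markers (median 0.0918), 4 of the 7 endothelial and 3 of the 7 pancreas markers. The list means of these cell types ran from -0.0349 to 0.0643 (lymphocyte), -0.160 to 0.130 (macrophage), -0.0505 to 0.0265 (endothelial) and -0.0257 to 0.0411 (pancreas) in Lpl+/- livers, against -0.0497 to 0.0373, -0.161 to 0.146, -0.00946 to 0.0288 and -0.0235 to 0.0574 in wild type livers. The part of cell composition in the slopes of the complement and coagulation genes was not tested.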

How the data were processed

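The authors deposited 1 log ratio per probe and mouse, read here as log10 ratios of mouse and pool; no source used here states the base. The authors' steps from scanner signals to these log ratios are not stated in any source used here. Per the labels' protocols, RNA came from DNase-treated spin column preparations, and the dyes, Cy3 and Cy5, were coupled by an automated aminoallyl method. Per the design text, dyes were swapped. How swapped hybridizations were joined is likewise unstated. Of 39556 probes, 23283 had 1 gene symbol, 16273 none and 0 several. Probes of a symbol were averaged, which gave 36824 features, with 0 missing values. Scale and centring were kept, and each array had 0 to 88 values at a limit. The number of arrays limits the precision.

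Features were fitted with limma (version 3.58.1, R 4.3.3, lmFit and eBayes, two-sided) on genotype, on genotype and score, and with their interaction, with Benjamini-Hochberg adjustment over all features and a threshold of 0.05. Correlations had 100000 permutations (Python 3.11.15, numpy 2.4.6, scipy 1.17.1), whose smallest p is 1.00e-05. Exact tests used all 12870 assignments of the mice or 40320 pairings of 8 mice. The fits were tested on simulated data with independent normal noise for each feature. Correlation between genes and outlying mice were not simulated, so that test does not cover them. Genes named with their values in each genotype were, per class, the 4 of smallest p for genotype, the 5 of largest slope statistic, the 3 most and 3 least variable, those on chromosome 8, the fibrinogen chains and Vtn; of other lists, the 3 of smallest p per fit. Other genes are given by slope. The genes and lists were chosen with earlier results of these data known. Symbols, chromosomes and promoters came from RefSeq tables of GRCm38.p6.

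Alternatives covered centring, normalization, single probes, variance model, array weights, turned signs, values at the limit, a filter on low variation, the score, covariates, each genotype alone and each mouse left out. The score as a covariate of the genotype fit was added after seeing the data.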

Additional observations from a re-analysis of the deposited data

Results flagged for a closer look

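In groups of 8 mice, a mouse was singled out when its gap to the next mouse exceeded a share of 0.526 of the range of the group. Of 66 groups of 8 mice (33 genes in each genotype), 9 had such a mouse, or 13.6%, against 7.32% over all features. Chance gives about 1 in 20 for independent groups, but the genes of a mouse share 1 array, so these groups are not independent. Lpl+/- 4, the mouse of highest acute phase score, accounted for 7 of these, all as the highest Lpl+/- value, or 21.2% of the 33 genes, against 3.80% of all features in which it was singled out. It stood at 0.557 in Cfb, 0.298 in Vtn, 0.289 in Mbl1, 0.136 in C6, 0.124 in Plg, 0.112 in Pros1 and 0.0650 in F10, and the next Lpl+/- mouse stood at -0.0146, 0.0324, 0.0251, -0.0167, 0.0231, -0.0539 and -0.00590. Lpl+/- 2 stood at 0.174 in F11, where the next mouse was Lpl+/- 1 at 0.0514. Wild type 8 stood at 0.238 in Kng1, where the next mouse was wild type 2 at 0.0495 and 1 of the 2 probes carried the value.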

How the results depend on the processing

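The count of 0 genes differing between Lpl+/- and wild type held in all alternatives run, including those that leave out 1 mouse (0 to 0), the score as a covariate and the replicate block. Of 525 repeats of the slopes of the 15 called genes, 0 changed sign and 127 lost the call. These repeats reuse mice of the fit that picked the 15 genes, so they are not independent of it or of each other. Counts of called complement genes (8) and coagulation genes (6) fell to 3 and 3 with quantile normalization (1.75% of all features called), 2 and 2 with wild type 8 turned (1.39%), 5 and 3 with Saa1, Saa2 and Saa3 alone as the score (1.99%), 2 and 1 in Lpl+/- mice alone (0.747%), 0 and 2 in wild type mice alone (0.975%), and 0 and 0 without the 2 mice farthest in the score (0.147%), against 4.30% of all features in the fit over all mice; the cause was not tested, but the last 3 used fewer mice. With the replicate block on 14 arrays they were 4 and 3 (1.89%), and 7 and 5 on the same arrays without it (3.76%). The mice share only a number: deviations from the group means had r of -0.245 to 0.381 between same-numbered mice over the 7 numbers in the titles that both genotypes have, and 2 of the 14 arrays correlated best with their own number, which is a hint from the data and not from the design. Leaving out each mouse gave 1 to 9 and 2 to 6, with the complement count moved most by Lpl+/- 4 (1), wild type 7 (4), wild type 8 (4), wild type 4 (5) and wild type 5 (5), and the coagulation count by Lpl+/- 4 (2). Over these alternatives, calls among all features ranged from 54 to 2354. The value of complement against coagulation (Lpl+/- minus wild type, 0.00713) lay between -8.17e-04 and 0.0135 with each mouse left out, and was -5.66e-04 with class medians, -0.00560 with wild type 5 turned and 0.0131 with wild type 8 turned, all within the spread between mice. Log base, direction and background signal of the arrays are not known, so probes near background could not be set apart.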
